A study of Homo sapiens with 4 samples.

Results

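The human genome holds 4 genes for alkaline phosphatase, and all 4 were found by symbol in the deposited table of 26364 genes: ALPP, ALPPL2 (named ALPG in newer annotation), ALPI and ALPL. They were chosen by gene name, and all 4 were among the 15599 genes with enough counts to be tested. They were measured by RNA sequencing in Ishikawa cells, a line from a human endometrial adenocarcinoma, that carry the ER-Y537S change in ESR1, the gene for estrogen receptor alpha. The series compared 2 groups, vehicle (0.1% DMSO) and 10 nM estradiol (E2), each given for 8 h, and each group held 1 library from each of 2 mutant clones. All cells had the mutant receptor and had been kept for at least 5 days in medium without phenol red and with charcoal-stripped serum, so no group here shows the normal receptor. The 2 clones appear in the table under the column tags A4 and B212, and each library is called by its tag and treatment, since no label links a tag to a clone number. Nothing in the labels says that a clone was sampled from separate cultures, so the p-values apply to these 4 libraries only and not to further cultures or clones.

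Alkaline phosphatases are enzymes of the outer cell surface, held there by a glycosylphosphatidylinositol (GPI) anchor, that remove phosphate groups from many substrates. ALPP encodes the placental form, ALPPL2 the closely related germ cell form and ALPI the intestinal form, and these genes lie side by side on chromosome 2. ALPL, on another chromosome, encodes the tissue-nonspecific form of bone, liver and kidney. Placental-type alkaline phosphatase activity is the classical readout of estrogen action in Ishikawa cells.

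The promoters of the 3 clustered genes are shown because these genes moved in the same direction with E2. The likeness of their transcripts, which bears on how their reads can be told apart, is given after the promoters. The 250 bases before the annotated start of each are printed 5′ to 3′ as RefSeq gives them (GRCh38.p14, plus strand), with capitals marking AGGTCA, the core hexamer bound by many nuclear receptors including the estrogen receptor, and its variant GGGTCA. The counts themselves were made on hg19, per the submitters' processing notes, and these coordinates are not theirs.
ALPP (chr2:232378501-232378750): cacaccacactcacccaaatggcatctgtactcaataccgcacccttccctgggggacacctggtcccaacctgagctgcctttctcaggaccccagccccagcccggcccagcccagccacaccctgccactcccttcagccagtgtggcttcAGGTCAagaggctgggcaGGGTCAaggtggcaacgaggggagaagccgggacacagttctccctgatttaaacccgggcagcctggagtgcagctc
ALPPL2 (chr2:232406594-232406843): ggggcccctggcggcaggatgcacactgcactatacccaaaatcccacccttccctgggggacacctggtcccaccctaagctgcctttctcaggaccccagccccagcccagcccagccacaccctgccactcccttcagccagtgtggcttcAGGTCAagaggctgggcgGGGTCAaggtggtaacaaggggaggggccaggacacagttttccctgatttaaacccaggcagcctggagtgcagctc
ALPI (chr2:232455903-232456152): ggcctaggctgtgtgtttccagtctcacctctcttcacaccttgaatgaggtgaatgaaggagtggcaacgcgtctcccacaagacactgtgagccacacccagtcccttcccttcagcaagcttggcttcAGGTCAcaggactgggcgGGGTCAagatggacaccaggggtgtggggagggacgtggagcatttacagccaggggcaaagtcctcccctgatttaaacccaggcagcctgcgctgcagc

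Each of the 3 windows held AGGTCA once and GGGTCA once, on the same strand and with 12 bases between them. AGGTCA began 96 bases before the start in ALPP and in ALPPL2, and 119 bases before it in ALPI. Of 35116 RefSeq promoter windows (250 bases before to 50 bases after a start, both strands), 13.8% held AGGTCA and 14.1% held GGGTCA. This pair with exactly 12 bases between its members stood in 4 windows: the 3 above and that of SERPINB9, an inhibitor of granzyme B. The variant and the pair were chosen after the sequences were read, and the promoters are copies of one another, so their shared letters are not separate observations. SERPINB9 itself had 316 (DMSO) and 319 (E2) counts in A4 and 312 and 194 in B212, with a log2 fold change of -0.30 by edgeR with the tag as a block (adjusted p = 0.194), a fit described with the results. The palindrome of GGTCA, any 3 bases and TGACC, the core of the classical estrogen response element, was in none of the 6 windows of the 4 genes and in 0.057% of all windows. GGGCGG, the GC box that Sp1 binds, was in the windows of ALPPL2 and ALPI but not that of ALPP, and in 45.0% of all windows. For ALPL it was only in window 2 of the 3 listed. AGGTCA and GGGTCA were in none of the 3 windows listed for ALPL.

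The ALPP and ALPPL2 promoters were identical at 88.5% of aligned bases, and each matched ALPI at 71.5% (ALPP) and 71.9% (ALPPL2). Of the aligned transcript bases, as listed in GENCODE 29, 91.6% were identical between ALPP and ALPPL2, 84.9% between ALPP and ALPI and 64.8% between ALPP and ALPL. The ALPP and ALPPL2 transcripts, of 2971 and 2493 bases, had 2465 aligned bases. Of all 50-base words of the ALPP transcript, 24.5% also occur in ALPPL2, and of those of ALPPL2, 29.3% occur in ALPP. For words of 100 bases the shares were 13.2% and 15.8%. ALPI shared 1.52% of its 50-base words with ALPP and 0.480% with ALPPL2, and ALPL shared none with the other 3. The read length and the handling of reads with several equal matches are not given in the sources used here. The split of counts between ALPP and ALPPL2 is therefore uncertain, and their sum is given beside the single genes.

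The libraries held 71575816 to 85222856 counts. ESR1, the mutated gene, had 110 (A4) and 107 (B212) CPM (counts relative to library size) in DMSO and 97.0 and 86.5 CPM in E2, and gene counts do not show the mutation itself. The epithelial markers EPCAM, at 505 to 577 CPM, and KRT8, at 634 to 830 CPM, were present in every library. Others of that list were much lower, with KRT7 at 7.23 to 9.11 CPM and MUC1 at 2.27 to 4.22 CPM. The stromal matrix gene DCN had at most 1 count, and the summed level of 8 stromal markers was 7.19 to 8.33 CPM in A4 and 1.86 to 1.98 CPM in B212. That sum leaves out the collagen gene COL1A1, listed with the osteoblast markers, at 92.4 to 128 CPM in A4 and 34.5 to 42.4 CPM in B212. The part of the stromal markers and COL1A1 in the clone differences given further on was not tested. In bulk RNA of a cloned line, fewer cells with these transcripts and less of them per cell cannot be told apart. Levels are CPM with library sizes scaled by TMM, a trimmed mean of the log ratios between libraries.

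ALPPL2 was the most abundant alkaline phosphatase transcript of these cells in every library, ALPP and ALPI followed, and ALPL was nearly silent. In A4, ALPPL2 stood at 80.3 CPM with DMSO and 89.9 CPM with E2, and in B212 at 56.3 CPM with DMSO and 86.5 CPM with E2. Both E2 libraries thus lay above both DMSO libraries, with a DMSO mean of 68.3 ± 16.9 CPM and an E2 mean of 88.2 ± 2.34 CPM (SD, n = 2). The DMSO libraries differed from each other by more than the E2 libraries did. In its A4 DMSO library ALPPL2 had more counts than 78.7% of the genes tested.

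ALPP, the placental gene proper, stood at 20.8 CPM with DMSO and 24.9 CPM with E2 in A4, and at 8.24 CPM with DMSO and 14.5 CPM with E2 in B212. The B212 E2 library stayed below the A4 DMSO library, so the groups overlapped, with a DMSO mean of 14.5 ± 8.91 CPM and an E2 mean of 19.7 ± 7.33 CPM (SD, n = 2). Within each tag the E2 library was the higher one.

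ALPI, the intestinal gene, had 4.21 CPM (A4) and 4.26 CPM (B212) in DMSO, and 7.73 CPM and 13.2 CPM in E2. The vehicle libraries were nearly the same and the E2 libraries differed widely, with a DMSO mean of 4.24 ± 0.0419 CPM and an E2 mean of 10.5 ± 3.89 CPM (SD, n = 2). The groups did not overlap. Of the 4 genes, ALPPL2 and ALPI had both E2 libraries above both DMSO libraries, as did 13.2% of all genes tested.

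ALPL, the tissue-nonspecific gene, had 60 (DMSO) and 44 (E2) counts in A4 and 28 and 12 counts in B212, or 0.164 to 0.819 CPM. Both A4 libraries were above both B212 libraries, and the treatment groups overlapped. Its E2 over DMSO ratio was 0.655 in A4 (95% counting interval 0.433 to 0.982) and 0.499 in B212 (0.231 to 1.01), so the B212 interval reached past equal levels.

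Levels of different genes can be compared only per transcript length. In CPM per kilobase of the longest coding transcript, ALPPL2 stood at 22.6 to 36.0, ALPP at 2.77 to 8.38, ALPI at 1.65 to 5.19 and ALPL at 0.0632 to 0.316. ALPL has several coding transcripts, and with its shortest its range was 0.223 to 1.12. The ranges of ALPPL2 and of ALPL, with either length, met no other, but those of ALPP and ALPI overlapped. In the B212 E2 library ALPI, at 5.19, was above ALPP, at 4.89, and in the other 3 libraries ALPP was the higher. The ALPPL2 level per kilobase was 6.04 times that of ALPP as a mean over the 4 libraries, and that ratio depends on how shared reads were split.

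**Figure D1:**
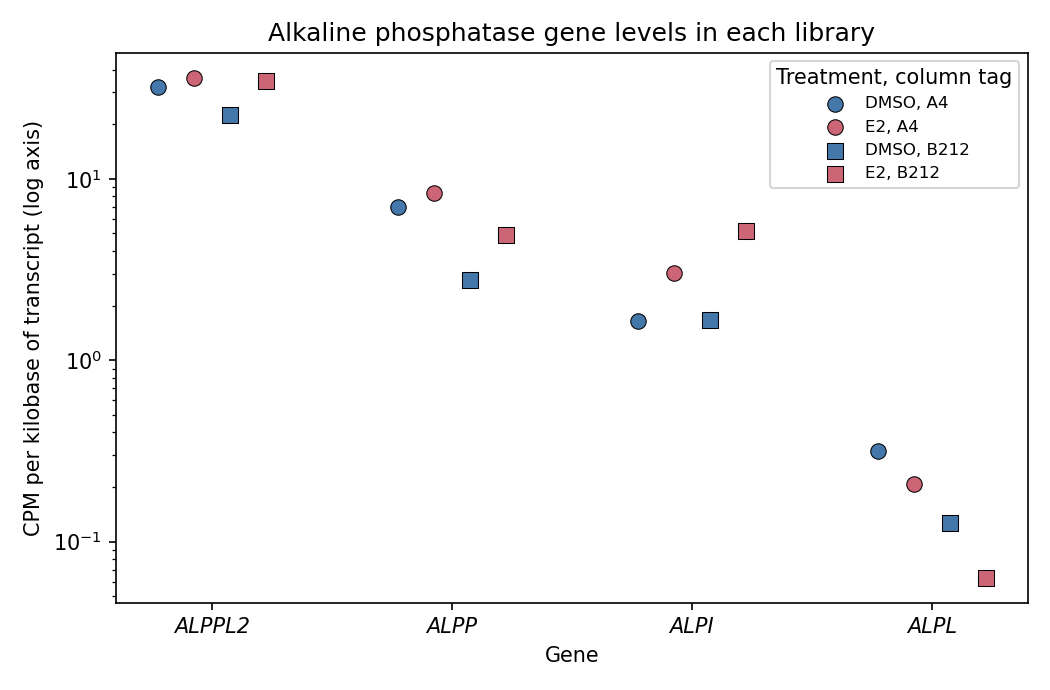
Level of each alkaline phosphatase gene in each library, in CPM per kilobase of its longest coding transcript on a log axis; colour marks treatment and symbol marks the column tag, with 1 point per library. ALPPL2 sits between 22.6 and 36.0 in all 4 libraries, ALPP and ALPI overlap, and ALPL stays at or below 0.316, or 1.12 with its shortest coding transcript, which is not drawn.

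The make-up of the 4-gene total differed between tags and treatments. ALPPL2 held 75.6% of these counts in DMSO and 73.0% in E2 in A4, and 81.5% and 75.6% in B212. The ALPI share went from 3.96% (95% exact binomial interval 3.54% to 4.42%) to 6.28% (5.82% to 6.77%) with E2 in A4. In B212 it went from 6.17% (5.57% to 6.81%) to 11.6% (10.9% to 12.3%). The intervals of the treatments did not meet in either tag; they cover counting error only, and each share rests on 1 library. ALPP was 20.6% of the ALPP and ALPPL2 sum in DMSO and 21.7% in E2 in A4, against 12.8% and 14.4% in B212. The mix of these copies thus differed more between tags than between treatments. Summed over the 4 genes, the level was 106 CPM (DMSO) and 123 CPM (E2) in A4, and 69.2 CPM and 114 CPM in B212.

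**Figure D2:**
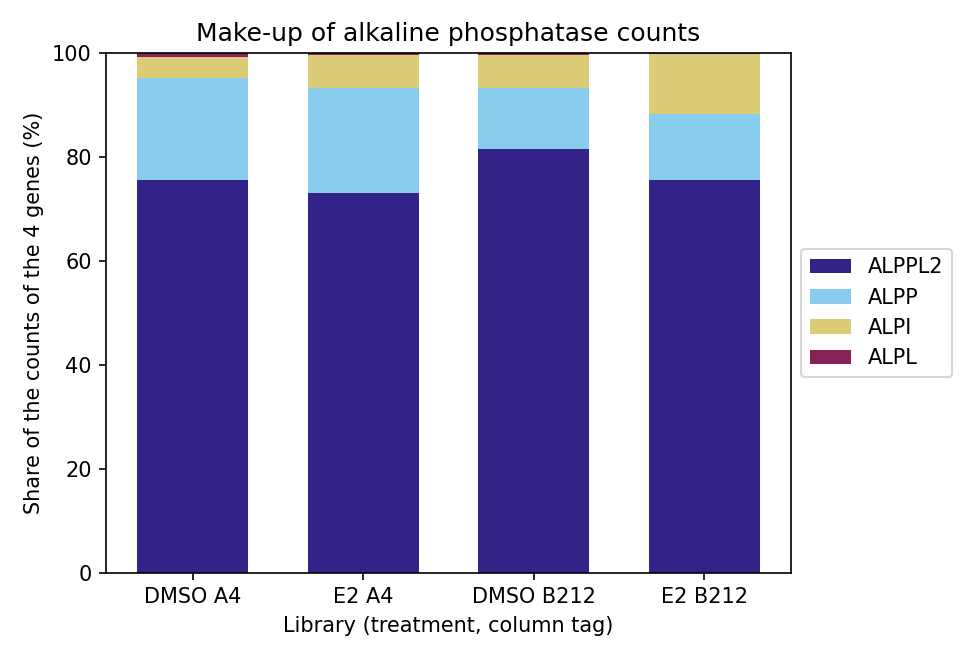
Share of the counts of the 4 alkaline phosphatase genes taken by each gene, in percent, with 1 bar per library. ALPPL2 takes 73.0% to 81.5%, and the ALPI band is wider in the E2 library of each tag, at 6.28% and 11.6%, than in its DMSO library, at 3.96% and 6.17%.

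The comparison of E2 with DMSO asked whether ligand still changed these genes in cells with the mutant receptor. ALPI, ALPP and ALPPL2 were higher with E2 in both tags, and ALPL was lower in both. Higher values in both tags were found for 33.3% of all genes tested and lower values in both for 36.8%. ALPI was 1.84-fold higher in A4 (95% counting interval 1.60 to 2.11) and 3.10-fold higher in B212 (2.75 to 3.51). ALPP was 1.19-fold higher in A4 (1.12 to 1.28) and 1.76-fold higher in B212 (1.60 to 1.94). ALPPL2 was 1.12-fold higher in A4 (1.08 to 1.16) and 1.54-fold higher in B212 (1.48 to 1.60). In each tag the ALPI interval lay above those of ALPP and ALPPL2. ALPP and ALPPL2 summed as 1 feature gave 1.13-fold in A4 and 1.57-fold in B212, so the direction did not rest on how shared reads were divided between them.

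Fits with and without a block across all 15599 genes were set beside each other. In the fit without it, 0% of genes passed a Benjamini-Hochberg adjusted p of 0.05 for E2 by edgeR (quasi-likelihood), and each of the 4 genes had an adjusted p of 0.9999. At an unadjusted p under 0.05 the share was 0.962% of genes, and ALPI, which ranked 19 by p-value at a log2 fold change of 1.31 ± 0.33 (SE), was the member of the family among them. The values of ALPP, ALPPL2 and ALPL in this fit were 0.44 ± 0.54, 0.37 ± 0.20 and -0.70 ± 0.80. In that fit the spread within a group includes the difference between the clones, and the coefficient of variation was 32.2%. With the tag as a block it was 5.99%, and 9.56% of genes were called, 6.13% higher and 3.44% lower.

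With the tag as a block, 3 of the 4 genes were called higher and none lower, beside 6.13% and 3.44% of all genes. ALPI rose by a log2 fold change of 1.27 ± 0.14 (SE), a 2.41-fold increase, with an adjusted p of 3.62e-05 by edgeR, and it ranked 10 among all genes by p-value. ALPP rose by 0.52 ± 0.11 on the same scale (adjusted p = 0.00697 by edgeR), and ALPPL2 by 0.39 ± 0.087 (adjusted p = 0.00927). Their sum rose by 0.41 ± 0.087, with an edgeR adjusted p of 0.00666. ALPL, at -0.74 ± 0.33, did not pass (adjusted p = 0.163 by edgeR). This fit has 1 residual degree of freedom per gene and takes most of its error from the other genes. Its SEs therefore do not measure how far the tags differed in their response. Within the tags the log2 ratios of ALPI were 0.88 (A4) and 1.63 (B212), and those of ALPPL2 were 0.16 and 0.62. Without the A4 E2 library the ALPP value with no block was -0.0026, and without the B212 DMSO library it was -0.094, since leaving out 1 library leaves the tags unbalanced between the treatments.

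Transcript length and GC content can shift counts between libraries. After a smoothed dependence on both was taken out of each library, with the tag kept as a block, the log2 fold changes were 1.35 for ALPI, 0.62 for ALPP and 0.46 for ALPPL2. All 3 were called, with edgeR adjusted p of 4.55e-07, 1.22e-04 and 1.15e-04, where 5.16% of all genes were called higher. ALPL, at -0.65, was again not called (adjusted p = 0.263 by edgeR), where 2.26% of all genes were called lower.

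The size of the response differed between the tags for the 3 clustered genes. The B212 log2 ratio of E2 over DMSO exceeded that of A4 by 0.76 for ALPI, with a 95% counting interval of 0.49 to 1.02. For ALPP the excess was 0.56 (0.39 to 0.73), and for ALPPL2 it was 0.46 (0.38 to 0.53). For ALPL the difference was -0.39, with an interval from -1.52 to 0.73 that included 0. These intervals cover counting error only, and whether the clones respond differently was not tested, because no tag had a second library of a treatment.

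PGR, the progesterone receptor gene and a standard target of the estrogen receptor, and GREB1, a growth regulator induced by estrogen in breast cells, give a scale for these values. Their folds of E2 over DMSO were 1.40 (A4) and 2.78 (B212) for PGR, and 1.08 and 1.82 for GREB1. With the tag as a block PGR rose by 0.90 ± 0.14 (log2, SE; edgeR adjusted p = 8.55e-04), and GREB1 by 0.48 ± 0.11 (edgeR adjusted p = 0.0102). The fitted value of ALPI was above both, and that difference between genes was not tested. All of these ratios share the same DMSO libraries.

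**Figure D3:**
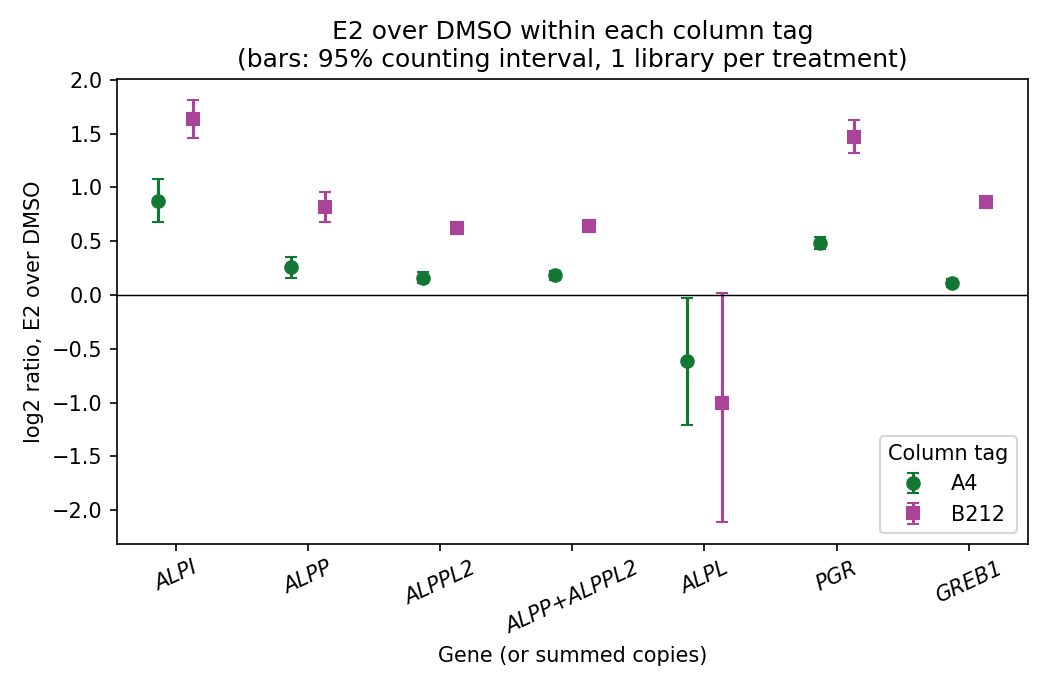
Log2 ratio of E2 over DMSO within each column tag for the alkaline phosphatase genes, the summed copies, PGR and GREB1, with 95% counting intervals from 1 library per treatment. ALPI, ALPP and ALPPL2 lie above 0 in both tags, with the B212 point higher by 0.46 to 0.76, and ALPL lies below 0 with the widest intervals.

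The clones were compared with treatment as a covariate, in a fit that describes these cells only. Of all genes tested, 51.0% were called by edgeR at an adjusted p under 0.05, 25.2% higher and 25.8% lower in B212. All 4 alkaline phosphatase genes were among them. ALPP was lower in B212, with a log2 difference of -1.05 ± 0.11 (SE; edgeR adjusted p = 1.47e-07) and ALPL of -1.47 ± 0.33 (adjusted p = 0.00109). ALPPL2 was also lower, at -0.28 ± 0.087 (edgeR adjusted p = 0.0108). ALPI was higher in B212 by 0.44 ± 0.14 (edgeR adjusted p = 0.0137), which rested on the E2 libraries. Without the A4 E2 library the ALPI value was 0.019, without the B212 E2 library it was 0.020, and without either DMSO library it was 0.77. The ALPPL2 difference rested instead on the DMSO libraries, at -0.51 without either E2 library and at -0.063 and -0.060 without a DMSO library. DESeq2 did not call ALPI (adjusted p = 0.119), and without the treatment term neither ALPI nor ALPPL2 was called.

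The cluster has other genes beside it, and several of them were also higher with E2. In the gene order, NPPC, the precursor of C-type natriuretic peptide, and DIS3L2, an RNA exonuclease, come before ALPP, and ECEL1, PRSS56 and CHRND follow ALPI. Among the 10 table genes on each side and ECEL1P2 inside the cluster, 15 were tested. Of these, 4 were called higher with the tag as a block and 0 lower, against 6.13% and 3.44% of all genes. Higher in both tags were 10 of the 15, beside 33.3% of all genes tested. The neighbours' median log2 fold change was 0.29, beside -0.0081 over all genes tested.

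NPPC had 403 (DMSO) and 889 (E2) counts in A4 and 298 and 767 in B212, and rose by 1.27 ± 0.13 (log2, SE; edgeR adjusted p = 1.25e-05). PRSS56, a serine protease gene, had 68 and 105 counts in A4 and 29 and 127 in B212, and rose by 1.30 with an edgeR adjusted p of 0.0131. CHRND, which encodes the delta subunit of the muscle acetylcholine receptor, had 61 and 131 counts in A4 and 117 and 207 in B212, and rose by 1.00 (edgeR adjusted p = 0.00415). NPPC, PRSS56 and CHRND were thus higher with E2 in both tags, and the fourth gene called was EIF4E2, a cap-binding protein gene, at 0.31 (adjusted p = 0.0130 by edgeR). DIS3L2, next to ALPP, was at 0.21 and was not called (edgeR adjusted p = 0.148), but it was with the length and GC trend removed, at 0.31 (edgeR adjusted p = 0.0103). ECEL1, next to ALPI, had 831 and 866 counts in A4 and 269 and 451 in B212, and was not called (0.37, edgeR adjusted p = 0.163), but it was with the trend removed, at 0.46 (edgeR adjusted p = 0.0485). In all, 6 of the 15 neighbours were called higher with the trend removed, beside 5.16% of all genes. ECEL1P2, a transcribed pseudogene between ALPP and ALPPL2, had 15 and 44 counts in A4 and 10 and 17 in B212; its value of 1.22 was not called (edgeR adjusted p = 0.0667), and how reads were split between it and ECEL1 is unknown. It was named after its values were seen. Between these genes the responses were uneven. Of the genes farther out, TIGD1, LINC00471, PTMA and PDE6D were higher with E2 in both tags, with fitted values of 0.33, 0.29, 0.19 and 0.15, and COPS7B, EFHD1, GIGYF2 and KCNJ13 were lower in both, at -0.015, -0.043, -0.12 and -0.81. None of these 8 was called, and they and EIF4E2 were named with their values in view.

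**Figure D4:**
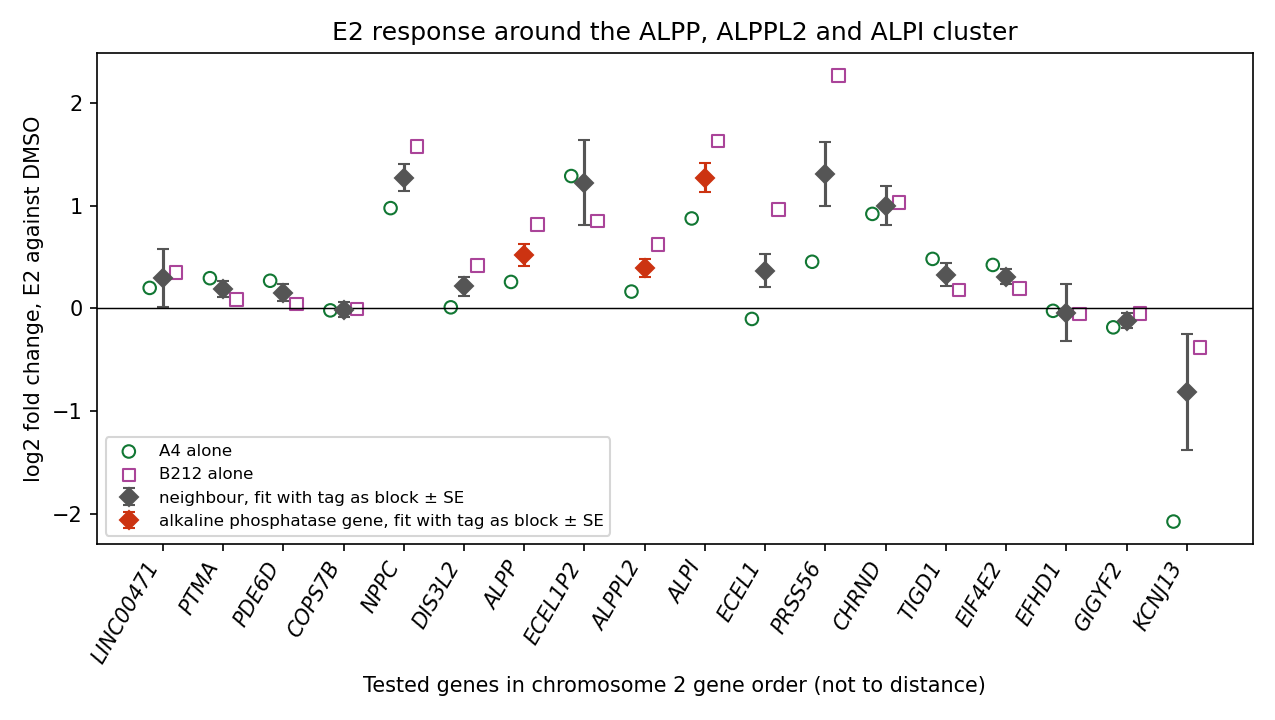
Log2 fold change of E2 against DMSO for the 18 tested genes in and around the alkaline phosphatase cluster, in chromosome 2 gene order and not to distance; diamonds are fitted values with tag blocking ± SE, and open symbols are each tag alone. NPPC, ECEL1P2, ALPI, PRSS56 and CHRND stand at 1.00 to 1.30, of which ECEL1P2 was not called, with ALPP at 0.52 and ALPPL2 at 0.39. DIS3L2, next to ALPP, is at 0.21. The genes farther out lie between -0.12 (GIGYF2) and 0.33 (TIGD1), apart from KCNJ13 at -0.81 with few counts.

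Alkaline phosphatases reach the surface only with a GPI anchor, and the genes that build and attach that anchor were counted next. Of 29 such genes, 28 were tested, and with the tag as a block 2 were called higher and 0 lower; the median log2 fold change was -0.0088. Over all genes 6.13% were called higher and 3.44% lower, with a median of -0.0081, so the anchor genes were near the background, and the lists that follow are to be read against the same shares. The 2 genes were DPM1, which makes the mannose donor (0.35, edgeR adjusted p = 0.00918), and PIGF, which takes part in adding ethanolamine phosphate (0.36, edgeR adjusted p = 0.0218). Neither was called with the length and GC trend removed. Of 12 genes of pyrophosphate, phosphate and vitamin B6 handling, 1 was called higher and 2 lower (6.13% and 3.44% of all genes), with a median of -0.048. PPA2, the mitochondrial pyrophosphatase, rose by 0.36 (edgeR adjusted p = 0.00760), while SLC20A2, a phosphate carrier, and PDXK, which makes pyridoxal phosphate, were each at -0.24 (edgeR adjusted p = 0.0358 and 0.0310). With the trend removed PPA2 was still called, SLC20A2 and PDXK were not, and XPR1, a phosphate exporter, was called lower at -0.20 (edgeR adjusted p = 0.0294). Of 10 genes that break down nucleotides at the cell surface, only ENPP4 was called (0.24, edgeR adjusted p = 0.0399), and not with the trend removed; the list median was -0.020.

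The tissues that give these enzymes their names were checked by their other genes. Of 16 placental trophoblast markers, 14 were in the table, 5 had no count in any library and 2 were tested. GATA2, with 786 to 921 counts, and TFAP2C, with 253 to 768 counts, were those 2, and both are transcription factor genes also used outside the placenta; neither was called for E2. The other 12 had at most 5 counts in any library. Among them were the hormone genes CGB5, with 0 to 5 counts, CGA, with at most 1, and CSH1 and CSH2, with none. The summed level of the list was 13.3 to 19.9 CPM and lay almost wholly in GATA2 and TFAP2C.

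Of 10 enterocyte markers, 6 were tested, and their median log2 fold change was -0.0026. ANPEP, the brush border aminopeptidase N gene, had 132 and 181 counts in A4 and 317 and 550 in B212 and rose by 0.72 ± 0.16 (log2, SE; edgeR adjusted p = 0.00993), as it did with the trend removed. SLC5A1, the sodium-glucose cotransporter gene, fell by 0.53 on the log2 scale (edgeR adjusted p = 0.0439) but was not called with the trend removed. The enterocyte genes SI, APOA4 and CDX1 had no count in any library, and FABP2 had at most 2. RBP2 had 516 to 778 counts, CDX2 165 to 282, VIL1 24 to 37 and LCT 13 to 22. These tested genes were not called for E2. Of 9 osteoblast markers, 4 were tested (median 0.072) and only COL1A1 was called, at -0.39 (edgeR adjusted p = 0.00394), also with the trend removed. COL1A1 had 2531 to 9363 counts, RUNX2 186 to 347, SPP1 66 to 490 and PHEX 19 to 49. The untested markers had at most 5 counts in any library, and IBSP had none. The endometrial epithelial list had 1 gene called higher, PGR, and 3 lower (6.13% and 3.44% of all genes): ESR1, KRT18 and PAX8, at -0.25, -0.27 and -0.25 (edgeR adjusted p = 0.0330, 0.0230 and 0.0358), with a median of -0.12 over 10 genes. Of those 3, KRT18 was called with the trend removed and the others were not. Of 8 stromal markers, 5 were tested and 0 called (median -0.26), and HAND2 and MME, the most abundant, were both lower in B212 than in A4, HAND2 at 76 to 86 against 209 to 210 counts.

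The genes whose profile over the 4 libraries was nearest to that of ALPPL2, by Euclidean distance between mean-centred log2 CPM among 13397 genes with at least 50 counts on average, were CORO1A, RHOBTB1, GCSAM, CERS1 and RMST, at distances of 0.032 to 0.11. For ALPP they were CHODL, SLC7A2, NCMAP, TBC1D16 and LOC101928766, at 0.14 to 0.20. ALPP and ALPPL2 were 0.79 apart, and ALPI was 1.11 from ALPPL2 and 1.62 from ALPP, so neither ALPP nor ALPPL2 had another alkaline phosphatase gene among its 5 nearest. With 4 libraries many genes can share a profile, and these distances are a description only.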

How the data were processed

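Poly(A)-selected RNA of 4 libraries (500 ng of input each) was measured. The deposited values are raw read counts per gene symbol, and per the submitters' processing notes HISAT2, SAMtools, featureCounts, DESeq2 and the build hg19 were used by the authors; versions, strand setting and annotation are not given in the sources used here. Symbols that name no gene numbered 0. The table has 4 further columns that fit none of the samples listed, and these were left out. Counting intervals and floors cover counting error only, since reads are not independent molecules.

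Genes were kept by filterByExpr (minimum count 10) and scaled by TMM. E2 and clone effects were tested with edgeR 4.0.16 (quasi-likelihood, Benjamini-Hochberg over 15599 genes, R 4.3.3) with no block, and with the column tag as a block. The labels give each clone 1 library per treatment, so libraries of a clone are pairs, and the column names carry the pairing. Deviations from the group means correlated between libraries of a tag (r = 0.871), and the first principal component (84.1% of variance) separated the tags. SE was derived from the fold change and F. Log2 CPM had a prior count of 2. The trend on length and GC content (GENCODE 29 transcripts, found for 96.6% of tested genes) was fitted with mgcv 1.9.3. Sequences were aligned with Biopython 1.88. Alternatives used DESeq2 1.42.0 and limma 3.58.1, other scalings and filters, and left out libraries.

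Promoter sequences came from RefSeq (GRCh38.p14), which held all 4 genes, with 3 entries for ALPL; the RefSeq gene table served for names and gene order. Protein sequences were not used here. The members and the 8 gene lists were chosen with earlier results of these data known. Besides the 4 genes, ESR1, PGR and GREB1, genes were named by rule: up to 3 per direction of each list by p-value, or the 2 most abundant where none was called, the 3 genes on each side of the cluster and of ALPL, and the 5 nearest profiles.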

Additional observations from a re-analysis of the deposited data

Results flagged for a closer look

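Some of the neighbouring and marker genes had E2 log2 ratios of opposite sign in the A4 and B212 libraries. The 4 alkaline phosphatase genes had the same sign in both tags, as most genes did: 33.3% of all genes tested were higher in both and 36.8% lower in both. The differences were not tested, with a single library for each tag and treatment.

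ECEL1, the gene after ALPI, was at -0.10 in A4 but 0.97 in B212 on this scale, and the B212 ratio was therefore higher by 1.07 with a 95% counting interval of 0.81 to 1.33. For GATA2 the difference was 0.28, for HAND2 it was 0.21, for TFAP2C it was -0.033 and for MME it was -0.65. The counting intervals of HAND2, TFAP2C and MME included 0, that of MME running from -1.51 to 0.21.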

How the results depend on the processing

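All alternatives below were planned. With no block, edgeR called 0 genes for E2 (150 at an unadjusted p under 0.05). The count was also 0 under both other scalings, both other filters, limma-voom, the summed copies and each left-out library (65 to 225 at an unadjusted p under 0.05), and DESeq2 called 1. The replicate block gave 1492 genes, and with it DESeq2 gave 562, DESeq2 size factors in edgeR 717, library sizes only 1686 (911 higher, 775 lower, against 956 and 536), no filter 1770, limma-voom 1138, the length and GC trend removed 1158 and the summed copies 1493. Of the 103 list genes, 0 were called with no block, and with the replicate block 13; with it the same alternatives in that order gave 4, 6, 14, 14, 11, 6 and 13. The block takes the clone difference out of the residual spread.

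With the replicate block the log2 fold changes ranged from 1.25 to 1.35 (ALPI), 0.49 to 0.62 (ALPP) and 0.37 to 0.46 (ALPPL2), and each was called wherever an adjusted p was given, the largest being 0.00506, 0.0393 and 0.0460. DESeq2 gave none for ALPI, ALPP and ALPL. ALPL was never called, at -0.79 to -0.65. With no block and all libraries none was called, and the signs held. Leaving out libraries gave -0.094 to 1.26 for ALPP (reversed at -0.0026 and -0.094), -1.80 to 0.10 for ALPL (reversed without the A4 DMSO library, at 0.10), 0.87 to 1.64 for ALPI and 0.12 to 0.65 for ALPPL2; a lone library is then assumed to vary like the others.

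The clone comparison called 7950 genes, and 4456 with no treatment term; its other alternatives stayed within 1.5 times. Leaving out a library left it no residual degrees of freedom, so it gave values with no calls. Member levels moved by less than the replicate spread with library sizes only. With the shortest coding transcript the mean ALPI over ALPL ratio per kilobase was 8.15 in place of 28.8, and the ratios of the other genes, with 1 coding transcript each, could not change. Low counts limit ALPL and ECEL1P2.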

Other observations

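The genes around ALPL on chromosome 1 were counted in the same way as those around the chromosome 2 cluster, and the regions were not tested against each other. Of 20 table genes, 10 on each side, 13 were tested; with the tag as a block 0 were called higher and 2 lower, beside 6.13% and 3.44% of all genes, and the median log2 fold change was -0.062. RAP1GAP, the GTPase-activating gene next to ALPL, had 2142 (DMSO) and 2072 (E2) counts in A4 and 3029 and 2095 in B212, and fell by 0.26 on the log2 scale (edgeR adjusted p = 0.0452). HSPG2, the perlecan gene, fell by 0.34 (edgeR adjusted p = 0.00672) and was named after its values were seen. With the length and GC trend removed neither was called, and SH2D5 was called higher at 0.38 (edgeR adjusted p = 0.0295), against 0.25 with the trend kept (edgeR adjusted p = 0.216). Among the nearest neighbours, NBPF3, ECE1 and USP48 were at -0.092, -0.062 and -0.064 and were not called.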
